A study of Brassica napus with 33 samples.

Results

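Roots of oilseed rape (Brassica napus cv. Trezzor, wild type) kept without cobalt (Co) were compared with roots of plants kept on the complete nutrient solution for the same time. The libraries were chosen by their labels. They were the 3 libraries of Co deprivation and the 3 control libraries of 22 days, 6 of the 33 libraries of the series. All plants grew in hydroponics in a greenhouse. They received the complete solution for 24 days, after which the Co group was moved to a solution from which only Co had been left out and the control group stayed on the complete solution. The Co libraries carry the harvest date of the controls labelled 22 days. Roots deprived of manganese (Mn) and of chlorine (Cl), with 3 libraries each and the same harvest date, entered the same model and are given where they show how the Co libraries differ. The labels call the libraries biological replicates and do not say whether each came from separate containers, so p-values measure the spread between these libraries. The Co content of the roots, and any trace of Co left in the deprived solution, were not analysed here. The comparison asks which root transcripts change when Co alone is withdrawn.

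Cobalt is the metal at the centre of cobalamin, a cofactor that bacteria make and that higher plants are not known to make. Nitrogen-fixing bacteria of legume nodules need it, whereas a requirement in a plant such as oilseed rape has not been established. In Arabidopsis, Co enters root cells along with iron through IRT1, a transporter of the ZIP (zinc/iron permease) family. It is then moved by the ferroportins, IREG1 towards the xylem and IREG2 into the vacuole. Members of these families, of the NRAMP metal transporters, the cation efflux proteins and the heavy-metal P-type ATPases are therefore described below beside the other ion transporters.

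Counts of read pairs on genes were 14547478, 11765941 and 18634425 in the 3 Co-deprived libraries, against 15037085, 14844060 and 12984922 in the controls. Between 70.6% and 76.0% of the pairs of each of the 12 libraries of this harvest were counted on genes. The labelled organ was not checked against marker genes, because only the study's lists of transporters and sulphur-pathway genes and its list of specific genes gave names to identifiers. In RNA of whole roots, fewer cells of a type and less RNA per cell cannot be told apart.

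Controls 1 and 2 stood much closer to each other than any other libraries. Their counts differed by a mean chi-square of 1.28 per gene, where 1 is expected from sampling alone, and their variation beyond sampling was 2.95% (coefficient of variation). In the other 32 pairs of libraries of one group in the series, the mean chi-square per gene lay between 4.99 and 49.0 and the variation between 12.1% and 35.9%. Control 3 differed from control 1 by 27.2% and from control 2 by 27.4%. The labels do not say whether controls 1 and 2 are repeat libraries of the same RNA. Values are therefore given for each library, and the counts of genes for each comparison and for the larger gene groups are given also with the counts of controls 1 and 2 summed and treated as 1 sample, a choice made after the libraries were seen. Genes whose libraries did not overlap were counted with all 3 controls only, so those counts carry this limit.

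On the first principal component of the 12 libraries, which held 28.2% of the variance, the Co-deprived libraries scored -116, -85.4 and -69.8. The Mn-deprived libraries scored -221, -57.1 and 5.58, the Cl-deprived libraries -68.3, 163 and 186, and the controls 105, 107 and 50.7. Co-deprived and control libraries thus did not overlap on this axis, and the Co-deprived libraries lay among the Mn-deprived ones and beside the first of the Cl-deprived ones. The second component, with 13.4%, set control 3 (-189) apart from controls 1 (67.6) and 2 (66.7), and spread the Co-deprived libraries over 110, 29.8 and -108.

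**Figure D1:**
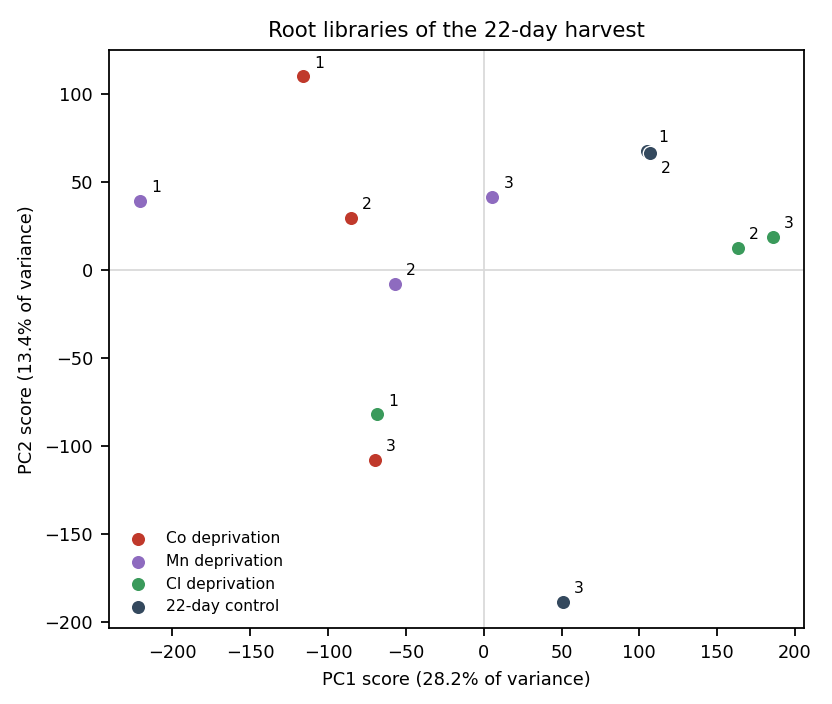
Scores of the 12 root libraries of the 22-day harvest on the first (28.2% of the variance) and second (13.4%) principal component of log2 CPM, with 1 point per library and its replicate number. All 3 Co-deprived libraries lie at or below -69.8 on the first axis and all 3 controls at or above 50.7, controls 1 and 2 nearly coincide, and control 3 lies far from them on the second axis.

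Across the 54251 genes tested, 3 differed between Co-deprived and control roots at a Benjamini-Hochberg adjusted p not above 0.05 in edgeR's quasi-likelihood test (0.00553% of the genes tested). BnaA04g08640D and BnaCnng26920D rose and had almost no reads in the controls, and BnaAnng06860D fell. None of the 3 has a name in the study's lists, so their functions are not given here. Each is described by its counts scaled to library size (CPM, with TMM normalization) or by its raw counts where these are few.

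BnaA04g08640D had 19, 18 and 43 counts in the Co-deprived libraries, against 1, 0 and 1 in the controls. In Mn-deprived roots it had 2, 1 and 4 counts, and in Cl-deprived roots 1, 1 and 0. Every Co-deprived library thus stood above all 9 others of this harvest. With each control library set at the floor of 3 counts, the gene was at least 7.55-fold higher in Co-deprived roots. The fitted log2 fold change, which depends on the prior count and is no bound, was 4.88 (95% interval 2.74 to 7.03, edgeR adjusted p = 0.0172).

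BnaCnng26920D had 33, 14 and 42 counts in Co-deprived libraries, against 0, 0 and 1 in controls. No read of it was counted in the 3 Mn-deprived libraries, and 2, 1 and 4 were counted in the Cl-deprived ones. It was at least 8.40-fold higher in Co-deprived roots than in controls set at the floor of 3 counts per library (edgeR adjusted p = 0.0481). As for the gene before it, the Co-deprived libraries were the only ones of the 12 with more than 4 counts.

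BnaAnng06860D fell to 4.57, 5.21 and 5.78 CPM in Co-deprived roots, against 12.5, 11.6 and 11.8 CPM in controls. The log2 fold change was -1.20 (95% interval -1.49 to -0.92, edgeR adjusted p = 0.0288). Its level in Mn-deprived roots was 7.59, 8.17 and 8.79 CPM, between both, and in Cl-deprived roots 13.5, 12.8 and 14 CPM, above the controls. The spread between the libraries of each group was small beside the distance between Co-deprived and control roots. Cl-deprived and control roots lay close together, with 12.8 against 12.5 CPM at their nearest (unadjusted p = 0.222 in edgeR's quasi-likelihood test).

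All 3 calls were sensitive to the set of libraries and to the test. With the replicate number as a block, 1 gene was called (BnaA04g08640D), and the adjusted p of each of the other 2 was 0.0655. With controls 1 and 2 treated as 1 sample the quasi-likelihood test called 0 genes, with adjusted p of 0.102 for BnaA04g08640D, 0.237 for BnaAnng06860D and 0.685 for BnaCnng26920D, and 3534 genes (6.40%) had an unadjusted p of 0.05 or less, here called the nominal threshold. The same libraries gave 21 calls in edgeR's likelihood ratio test, the test the study names, and 14 in DESeq2. The direction of the 3 genes was the same in all 19 alternatives with a p for BnaA04g08640D and for BnaCnng26920D and in all 21 for BnaAnng06860D, and their adjusted p stayed at most 0.05 in 10, 8 and 9 of these. The adjusted p ranged over 7.32e-08 to 0.373 for BnaA04g08640D, 1.88e-09 to 0.710 for BnaCnng26920D and 1.06e-07 to 0.373 for BnaAnng06860D.

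With all 3 controls, the likelihood ratio test called 77 genes (0.142%), 39 higher and 38 lower. DESeq2 called 52 of 54158 (0.096%), with 26 in each direction. A quasi-likelihood fit of the 6 libraries alone called 67 of 52134 (0.129%), 13 higher and 54 lower. The 3 genes described above were called by all 4 fits.

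At the nominal threshold, 5728 genes (10.6%) differed, 2889 of them higher in Co-deprived roots (5.33%) and 2839 lower (5.23%). All Co-deprived libraries lay above all controls for 6368 genes (11.7%) and below them for 5672 (10.5%), 22.2% of genes in all. The counts of genes past the nominal threshold in Mn deprivation and in Cl deprivation against the same 3 controls were 6445 (11.9%) and 2282 (4.21%), and neither contrast had a gene at an adjusted p of 0.05 or less in the quasi-likelihood test (0 in both), whereas the likelihood ratio test called 182 in Mn and 33 in Cl deprivation. These contrasts share their controls with the Co contrast.

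The size of change that could have been seen was computed for each gene from its standard error. For a gene to pass the adjusted threshold alone among 54251, its p must reach 9.22e-07. At the median spread, this required a log2 fold change of 2.26 in either direction, a 4.79-fold difference, and 2.47 (5.56-fold) to pass in 80% of repeats of the experiment. Had 100 genes changed together, each would have needed a p of 9.22e-05 and the median gene a log2 fold change of 1.42 (2.67-fold). Without adjustment the median was 0.54 (1.45-fold).

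Precision followed the level of the gene. For 1 gene passing alone, the median detectable log2 fold change was 4.72 for the 4027 genes below 1 CPM, 3.06 for the 15172 genes at 1 to 4 CPM and 1.91 for the 19672 genes at 4 to 16 CPM. It was 1.56 for the 12492 genes at 16 to 64 CPM and 2.08 for the 2888 genes at 64 CPM and above. Genes of middle level were therefore measured best, and the most abundant ones varied more between libraries of a group. These sizes come from the standard error, not from the quasi-likelihood test, and were too large for both weakly expressed called genes. BnaA04g08640D, ranked first, was called at a log2 fold change of 4.88, although its own size for passing alone was 7.31. BnaCnng26920D was called at 5.84, below its own size of 8.39 for 100 genes changing together. The sizes for genes below 1 CPM are therefore no lower limit for a call. For 35086 genes (64.7%), the 95% interval of the log2 fold change lay within 1 of 0, so that for each of these, taken singly, a larger change in either direction lay outside its interval.

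The median log2 fold change over all genes was 0.01. At 64 CPM and above it was -0.16, with 189 genes lower and 69 higher in Co-deprived roots at the nominal threshold. Together these were 8.93% of the genes at that level, against 10.6% of all genes. The detectable size for 1 gene alone rose to 2.76 with controls 1 and 2 treated as 1 sample and to 2.87 in the fit of the 6 libraries.

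**Figure D2:**
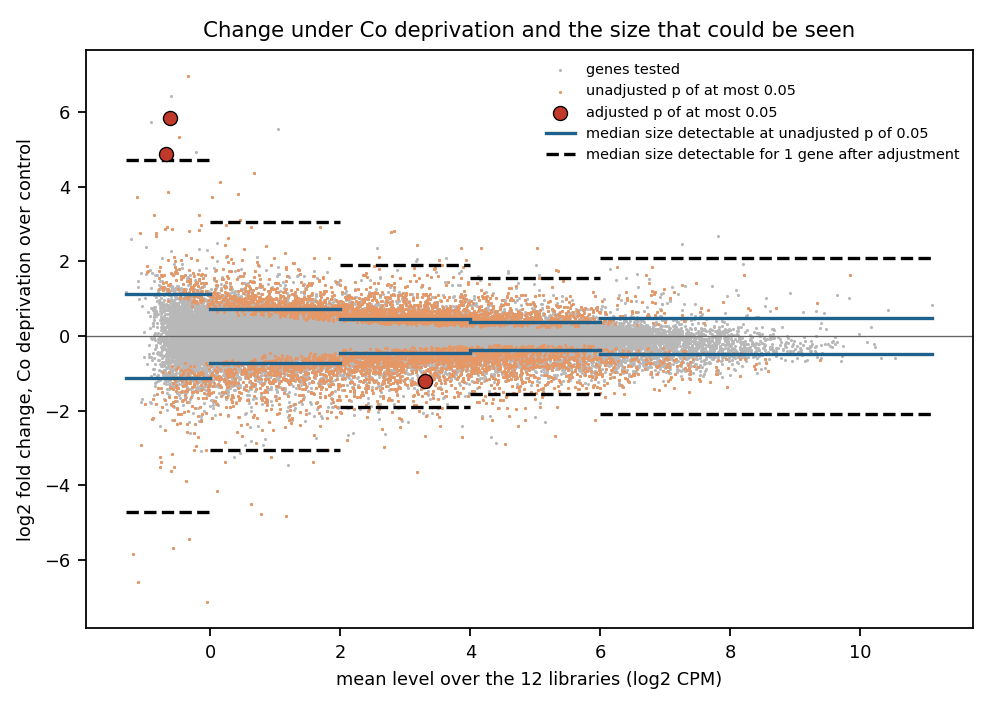
Log2 fold change of each of the 54251 genes, Co deprivation over control, against its mean level over the 12 libraries in log2 CPM, with the median size detectable at an unadjusted p of 0.05 (solid lines) and for 1 gene alone after adjustment (dashed lines) in 5 ranges of level. The called genes BnaA04g08640D and BnaCnng26920D (large points, 4.88 and 5.84) lie above the dashed line of their range and BnaAnng06860D (-1.20) inside that of its range, and most genes past the nominal threshold lie between both sets of lines.

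The genes were then ranked by p, and the 12 first in each direction are described, with the 3 called genes among them. Adjusted p of the other 21 lay between 0.288 and 0.461 in the edgeR quasi-likelihood test, so none of these passed, and the levels below are a description. In each of the 24 the Co-deprived and control libraries did not overlap.

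BnaA01g28660D encodes an oxoglutarate/iron-dependent dioxygenase, an enzyme type that uses iron and oxygen to oxidise its substrates. Its levels were 18.8, 17.2 and 18.3 CPM in Co-deprived roots, against 8.82, 8.67 and 8.39 CPM in controls (log2 fold change 1.07, 95% interval 0.71 to 1.43). Mn-deprived roots had 25.5, 17.3 and 15.8 CPM and Cl-deprived roots 12.2, 11.6 and 10.9 CPM. The Co- and Mn-deprived levels overlap, and the Cl-deprived levels lie between those and the controls.

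BnaA03g42880D had 49.2, 75.7 and 51.9 CPM in Co-deprived roots and 17.9, 19.9 and 14.5 CPM in controls (log2 fold change 1.75). BnaC04g04830D had 7.13, 10.3 and 8.03 CPM in Co-deprived roots and 2.08, 1.96 and 1.77 CPM in controls (2.12). BnaA05g05420D had 4.44, 6.39 and 5.04 CPM in Co-deprived roots and 1.25, 1.19 and 1.23 CPM in controls (2.1). All 3 had Mn-deprived libraries in the range of the Co-deprived ones, between 36.2 and 68.4 CPM for the first, 5.84 and 11.2 CPM for the second and 3.76 and 6.48 CPM for the last. BnaA01g21050D (log2 fold change 1.67), BnaC03g15660D (1.77), BnaC03g27650D (1.37) and BnaA01g05930D (2.23) were also higher in Co-deprived roots.

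A pair of weakly expressed genes was high in the Co-deprived libraries alone. BnaAnng22920D had 11, 15 and 22 counts in Co-deprived libraries, against 1, 1 and 0 in Mn-deprived, 2, 3 and 1 in Cl-deprived and 1, 3 and 2 in control libraries. It was at least 4.74-fold higher in Co-deprived roots than controls set at the floor of 3 counts per library. BnaC04g46560D had 31, 23 and 78 counts in Co-deprived libraries, against 6, 6 and 7 in Mn-deprived, 4, 8 and 10 in Cl-deprived and 5, 4 and 11 in control libraries (log2 fold change 2.44). In both, no other library of the harvest reached the lowest Co-deprived one.

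Of the 12 higher genes, the Co-deprived libraries lay above all Cl-deprived libraries in 12, against 9.8% of all genes tested, and above all Mn-deprived ones in 5, against 3.03%. Of the 12 lower genes, they lay below all Cl-deprived libraries in 11, against 7.27%, and below all Mn-deprived ones in 6, against 3.12%. The genes were ranked on the same Co-deprived libraries that are compared here, so these counts are in part set by that choice and are a description.

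Among the lower genes, BnaA03g30320D encodes a multi antimicrobial extrusion (MATE) protein, a family of membrane carriers that export organic compounds from the cytoplasm. It had 3, 3 and 1 counts in Co-deprived libraries, against 43, 44 and 31 in controls, at least 14.1-fold lower with each Co-deprived library set at the floor of 3 counts. Mn-deprived libraries had 0, 4 and 10 counts and Cl-deprived ones 13, 0 and 13, so that all 9 deprived libraries lay below the 3 controls.

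BnaCnng14300D had 1.95, 3.36 and 3.28 CPM in Co-deprived roots and 7.57, 7.27 and 16.3 CPM in controls (log2 fold change -1.85). It had 6.04, 6.54 and 6.64 CPM in Mn-deprived and 13, 17.5 and 16.1 CPM in Cl-deprived roots. Co-deprived libraries were thus the lowest of the 12. BnaA09g14180D had 23.3, 36.9 and 33.4 CPM in Co-deprived roots and 67.4, 69.3 and 60.2 CPM in controls (-1.07). BnaC03g09490D, BnaA06g13880D, BnaA09g52780D, BnaA01g24440D, BnaA08g14830D, BnaC09g40370D, BnaA03g49900D and BnaA06g37040D were lower by log2 fold changes of -0.65 for BnaA03g49900D to -2.22 for BnaC09g40370D.

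**Figure D3:**
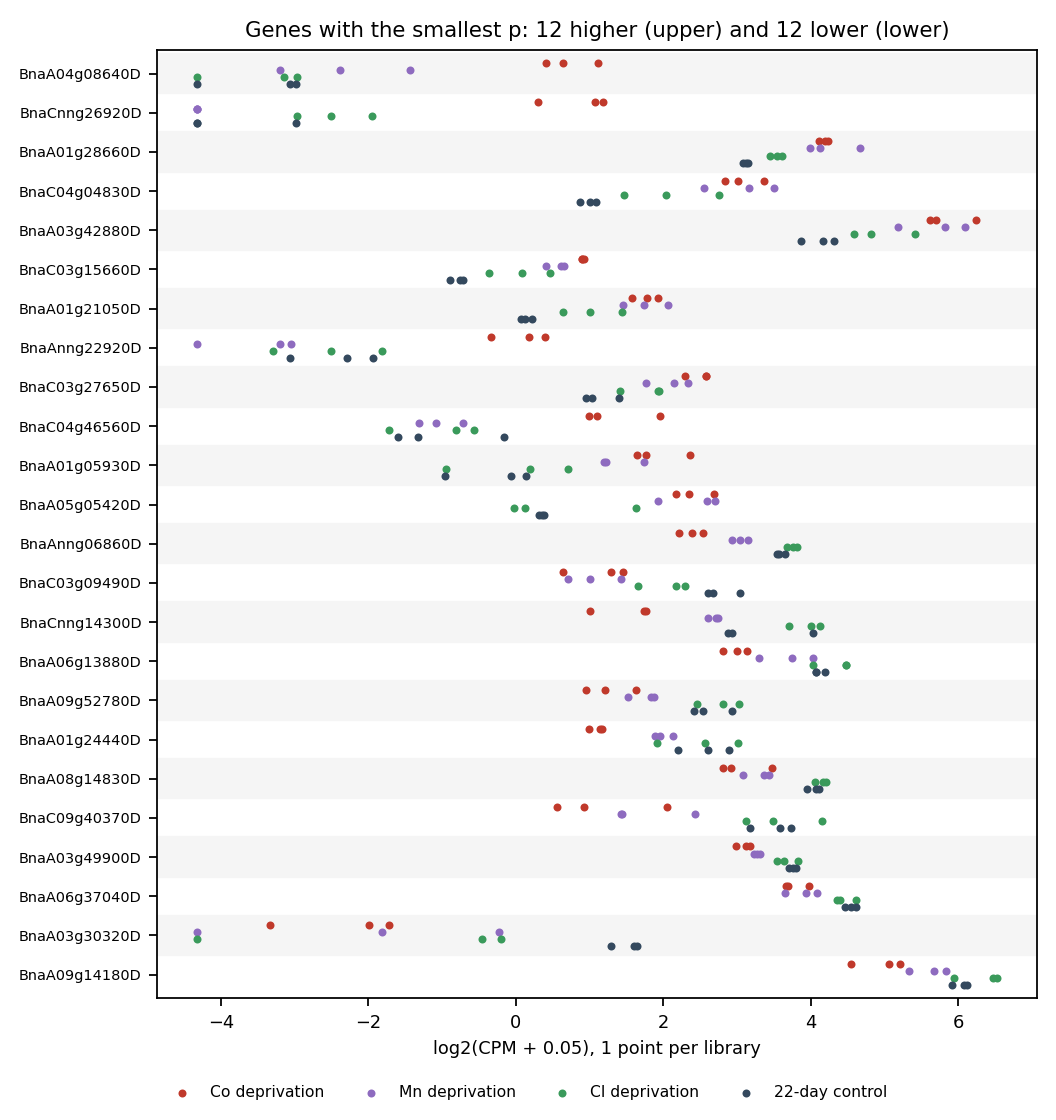
Levels of the 12 genes of smallest p that were higher in Co-deprived roots (upper) and the 12 that were lower (lower), as log2(CPM + 0.05), with 1 point per library of Co, Mn and Cl deprivation and control. Co-deprived and control points are apart in every gene, whereas Mn-deprived points overlap Co-deprived ones in 7 of the 12 higher and 6 of the 12 lower genes.

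The deprivations were also contrasted directly, within the model of 12 libraries whose estimate of spread includes the controls. Between Co- and Cl-deprived roots, 6 genes passed an adjusted p of 0.05 in edgeR's quasi-likelihood test (0.0111%), of which BnaA04g08640D and BnaA01g27810D rose and BnaAnng11570D, BnaC04g00590D, BnaAnng06860D and BnaCnng14300D fell in Co-deprived roots. The adjusted p of BnaA04g08640D, BnaAnng06860D and BnaAnng11570D was 0.00500 each, and that of the other 3 was 0.0446. The count was 795 in the likelihood ratio test, 852 in DESeq2, 38 with the replicate block, 3 with controls 1 and 2 treated as 1 sample and 0 in a fit of these 2 groups alone. Leaving out single Co-deprived or control libraries gave 1 (without Co library 1 or 2) to 22 (without Co library 3). Between Co- and Mn-deprived roots 0 genes passed, with 1283 (2.36%) at the nominal threshold, 11 calls in the likelihood ratio test and 7 in DESeq2. The adjusted p there was 0.0636 for BnaCnng26920D and 0.0639 each for BnaA04g08640D and BnaAnng22920D. At the nominal threshold, 8646 genes (15.9%) differed between Co- and Cl-deprived roots.

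Ion transporters were taken from the study's list of 302 genes in 21 groups by ion, which the study had picked as changed in at least 1 deprivation of the 10-day harvest, not on the libraries used here. Of these, 278 were tested and 24 were too weakly expressed. None was called (0 of 278, smallest adjusted p 0.461 in edgeR's quasi-likelihood test). The likelihood ratio test called 4, where it called 0.142% of all genes, and DESeq2 called 1, where it called 0.096%. At the nominal threshold, 63 differed (22.7%, against 10.6% of all genes), 21 higher and 42 lower in Co-deprived roots. With controls 1 and 2 treated as 1 sample this count was 36, where 6.40% of all genes passed. Leaving out single libraries gave between 34 and 60, where these runs gave 3645 to 6409 of all genes. The counts of the groups below under these settings have the same backgrounds, so they move in part with the number of all genes that passed.

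The median log2 fold change of the list was -0.12, with 175 genes negative and 103 positive, against 0.01 over all genes. Co-deprived libraries lay below all controls in 51 genes of the list and above them in 35, 30.9% together, against 22.2% of all genes. For 136 of the 278, the 95% interval lay within 1 of 0, and the median gene of the list needed a log2 fold change of 2.46 to pass alone. In Mn deprivation against the same controls, 21 were higher and 36 lower at the nominal threshold (20.5%, against 11.9% of all genes). In Cl deprivation 8 were higher and 19 lower (9.71%, against 4.21% of all genes). Against the Mn-deprived libraries themselves, 6 genes of the list were higher in Co-deprived roots and 7 lower (4.68%, against 2.36% of all genes).

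**Figure D4:**
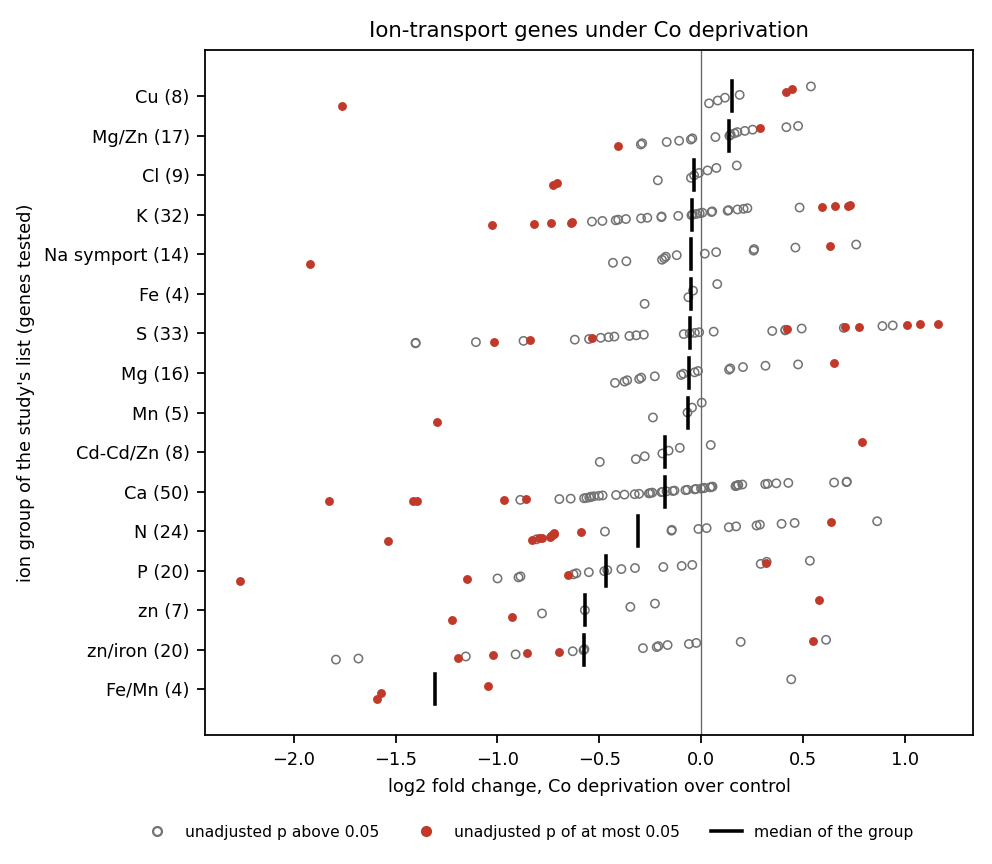
Log2 fold change of the ion-transport genes, Co deprivation over control, by ion group of the study's list, for groups of 4 or more tested genes (number tested in brackets), with filled points for genes at the nominal threshold and bars for the median of the group. Medians run from 0.15 in the Cu group down to -1.31 in the Fe/Mn group, and no gene passed the adjusted threshold.

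Cobalt itself has 1 gene in the list, the nickel/cobalt transporter BnaAnng11650D. It had 17.2, 15.0 and 16.0 CPM in Co-deprived roots, against 17.1, 14.1 and 15.5 CPM in controls. The log2 fold change was 0.05 with a 95% interval of -0.27 to 0.37, so a change of more than that in either direction lay outside the interval. Mn-deprived roots had 18.6, 13.3 and 17.3 CPM, and Cl-deprived roots 26.3, 22.5 and 22.4 CPM, above every Co-deprived and control library.

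The ferroportins, exporters of iron that in Arabidopsis also carry Co, had 3 tested genes. BnaC03g01300D had 5.51, 4.62 and 4.65 CPM in Co-deprived roots and 4.93, 4.82 and 4.23 CPM in controls (log2 fold change 0.08, 95% interval -0.35 to 0.51). BnaA03g00950D had 2.08, 1.26 and 1.32 CPM in Co-deprived roots and 1.94, 2.24 and 1.46 CPM in controls (-0.28, -0.89 to 0.33). BnaC04g06820D had only 2 to 17 counts in these libraries, and its interval of -1.44 to 1.36 did not limit it closely. In all 3 the Co-deprived and control libraries overlapped.

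The zinc/iron permeases, the family of the Arabidopsis Co entry route IRT1, had 20 tested genes, of which 17 had a negative log2 fold change (median -0.58). At the nominal threshold, 4 were lower and 1 was higher in Co-deprived roots (25.0%, against 10.6% of all genes), and 3 and 1 with controls 1 and 2 treated as 1 sample. Leaving out single libraries gave 3 to 8 (without Co library 1) lower genes. BnaA10g03460D had 6.92, 4.62 and 5.19 CPM in Co-deprived roots and 12.1, 14.3 and 7.62 CPM in controls (log2 fold change -1.02, 95% interval -1.66 to -0.38). BnaA08g07950D had 0.54, 0.34 and 0.49 CPM in Co-deprived roots and 1.46, 1.19 and 0.54 CPM in controls (-1.20, -2.32 to -0.08). Control 3 was the lowest control in both, near the Co-deprived range.

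Co-deprived libraries lay above all controls in 3 permeases and below them in 2, 25.0% together, against 22.2% of all genes. The highest log2 fold change of the family was 0.61. Among the higher permeases, BnaC02g09920D had 6.52, 7.40 and 6.86 CPM in Co-deprived roots against 4.58, 5.94 and 3.62 CPM in controls (log2 fold change 0.55). It was higher still in Cl-deprived roots, with 14.2, 18.2 and 15.4 CPM. In Mn deprivation against the same controls, 1 permease was lower and 2 were higher at the nominal threshold (15.0%, against 11.9% of all genes). The median over the 20 was -0.31. In Cl deprivation against the same controls, 5 were lower and 2 higher (35.0%, against 4.21% of all genes), with a median of -0.02.

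Heavy-metal P-type ATPases pump ions such as zinc, cadmium and copper across membranes, and in plants some also move Co. Of 10 tested, 4 were higher (against 5.33% of all genes) and 2 lower (against 5.23%) at the nominal threshold. With controls 1 and 2 treated as 1 sample, 2 were higher and 2 lower, and without single libraries 1 (without Co library 1 or control 3) to 3 were higher. BnaA03g50000D, listed under zn, had 1.61, 1.26 and 1.27 CPM in Co-deprived roots and 3.19, 3.36 and 3.15 CPM in controls (log2 fold change -1.22, 95% interval -1.78 to -0.66). With an unadjusted p of 0.000431 it had the smallest p of the whole list. BnaC07g50890D, of the same group, had 4.03, 2.35 and 2.45 CPM in Co-deprived roots and 5.63, 6.29 and 4.92 CPM in controls (-0.93).

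Of the 4 ATPases that were higher, BnaA07g36130D had 95.5, 72.6 and 82.8 CPM in Co-deprived roots and 63.1, 60.7 and 43.9 CPM in controls (log2 fold change 0.58). BnaAnng31630D, of the cadmium and zinc group, had 14.9, 15.0 and 22 CPM in Co-deprived roots and 10.4, 9.51 and 10.2 CPM in controls (0.79, 95% interval 0.33 to 1.26). The copper-group genes BnaC09g11230D (0.42) and BnaA09g10950D (0.45) were the other two. In all 4 the Co-deprived libraries lay above every control, as in 11.7% of all genes, and in all 4 at least 1 Mn-deprived library lay in or above the Co-deprived range.

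None of the 5 tested NRAMP genes, carriers of divalent metals, reached the nominal threshold, and all 5 log2 fold changes were negative, between -0.32 and -0.10. Of the 6 cation efflux proteins, all had a negative log2 fold change and 1 passed the nominal threshold (16.7%, against 10.6% of all genes). That gene, BnaCnng31720D of the Mn group, had 4.1, 1.43 and 1.86 CPM in Co-deprived roots and 8.26, 8.39 and 1.54 CPM in controls (-1.30), so control 3 lay within the Co-deprived range. Over the metal families together, 45 of 48 listed genes were tested, 5 were higher and 7 lower at the nominal threshold (26.7%, against 10.6% of all genes). The quasi-likelihood test called 0 of them and the likelihood ratio test 1, where the latter called 0.142% of all genes. With controls 1 and 2 treated as 1 sample, 3 were higher and 5 lower. Without single libraries 1 (without control 3) to 4 were higher, and 5 to 11 (without Co library 1 or control 3) lower.

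The Fe/Mn group holds genes with the DUF125 domain, that of the vacuolar iron transporters, and 4 of its 8 genes were tested. BnaA06g14970D had 3.36, 2.52 and 2.25 CPM in Co-deprived roots and 5.28, 6.85 and 4.62 CPM in controls (log2 fold change -1.05, 95% interval -1.54 to -0.55). BnaC03g44680D had 11.6, 2.1 and 5.78 CPM in Co-deprived roots and 23.4, 26.1 and 9.62 CPM in controls (-1.59). BnaA03g57720D had 6.92, 0.84 and 3.97 CPM in Co-deprived roots and 14.7, 14.9 and 5.69 CPM in controls (-1.57). The last 2 overlapped between the groups. The median of the 4 genes was -1.31 in Co deprivation, against -1.61 in Mn deprivation and -1.90 in Cl deprivation with the same controls. In each of these contrasts 3 of the 4 passed the nominal threshold as lower (75.0%). Of all genes, 10.6% differed at that threshold in Co, 11.9% in Mn and 4.21% in Cl deprivation.

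The nitrogen group had the most genes past the nominal threshold among the larger groups, 10 lower and 1 higher of 24 tested (45.8%, against 10.6% of all genes). They are named here after their values were seen, since the rule for naming took only 1 gene of the group. NAR2 proteins are the partners that NRT2 nitrate transporters need for high-affinity nitrate uptake in Arabidopsis roots. All 5 Nar2 genes were lower in Co-deprived roots at the nominal threshold, with no overlap between Co-deprived and control libraries (median log2 fold change -0.74). Of all genes, 5.23% were lower at that threshold and 10.5% were lower with no overlap.

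BnaC03g27680D had 57.7, 70.0 and 118 CPM in Co-deprived roots and 156, 149 and 132 CPM in controls (log2 fold change -0.83, 95% interval -1.44 to -0.22). BnaC09g26540D had 19.4, 18.1 and 38.2 CPM in Co-deprived roots and 45.1, 42.4 and 44.4 CPM in controls (-0.80). BnaA02g11760D had 65.6, 66.0 and 129 CPM in Co-deprived roots and 156, 149 and 129 CPM in controls (-0.74). In each, Co-deprived library 3 lay nearest to the controls and libraries 1 and 2 far below them. BnaA03g57010D (-0.59) and BnaC02g16150D (-0.72) had the same order, with library 3 at 157 and 136 CPM.

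The count of Nar2 genes past the nominal threshold followed single libraries. It was 0 without Co library 1, 1 without Co library 2 and 5 without Co library 3. Without control 1 or control 2 it was 2, without control 3 it was 4, and with controls 1 and 2 treated as 1 sample it was 2. Over the whole nitrogen group the count of lower genes lay between 2 (without Co library 2) and 10 (without Co library 3) when single libraries were left out, and was 5 with controls 1 and 2 treated as 1 sample.

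Members of the major facilitator superfamily, to which nitrate transporters of the NRT2 type belong, made up the other 5 lower genes. BnaC08g43380D had 171, 237 and 399 CPM in Co-deprived roots and 452, 443 and 437 CPM in controls (log2 fold change -0.72). BnaC08g43370D had 3.70, 2.44 and 8.57 CPM in Co-deprived roots and 15.7, 15.0 and 12.8 CPM in controls (-1.54). BnaC08g02430D (-0.78) and BnaAnng40490D (-0.73) were likewise lower with no overlap, and BnaA08g24500D (-0.74) was lower with an overlap at control 3.

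The ammonium transporters of the group, which take up ammonium, did not share this direction. Of 10 tested, 9 had a positive log2 fold change (median 0.28) and 1 passed the nominal threshold (10.0%, near the 10.6% of all genes). BnaA07g05760D had 31.0, 38.7 and 35.3 CPM in Co-deprived roots and 22.4, 20.6 and 24.5 CPM in controls (0.64, 95% interval 0.23 to 1.04). Mn-deprived roots had 33.3, 40.3 and 30.6 CPM and Cl-deprived roots 43.3, 38.8 and 26.3 CPM, so all 9 deprived libraries exceeded the 3 controls.

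In Mn deprivation, all 5 Nar2 genes were lower than the same controls at the nominal threshold (median -0.72), and in Cl deprivation none was (median -0.01). Tested directly, 3 of the 5 were lower in Co- than in Cl-deprived roots at the nominal threshold (median -0.58), and 0 differed between Co- and Mn-deprived roots at that level (median 0.09). Of all genes, 11.9% differed at that threshold in Mn and 4.21% in Cl deprivation against the controls. Between Co- and Cl-deprived roots 15.9% differed, and between Co- and Mn-deprived roots 2.36%. No Nar2 gene was called in any of these contrasts.

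**Figure D5:**
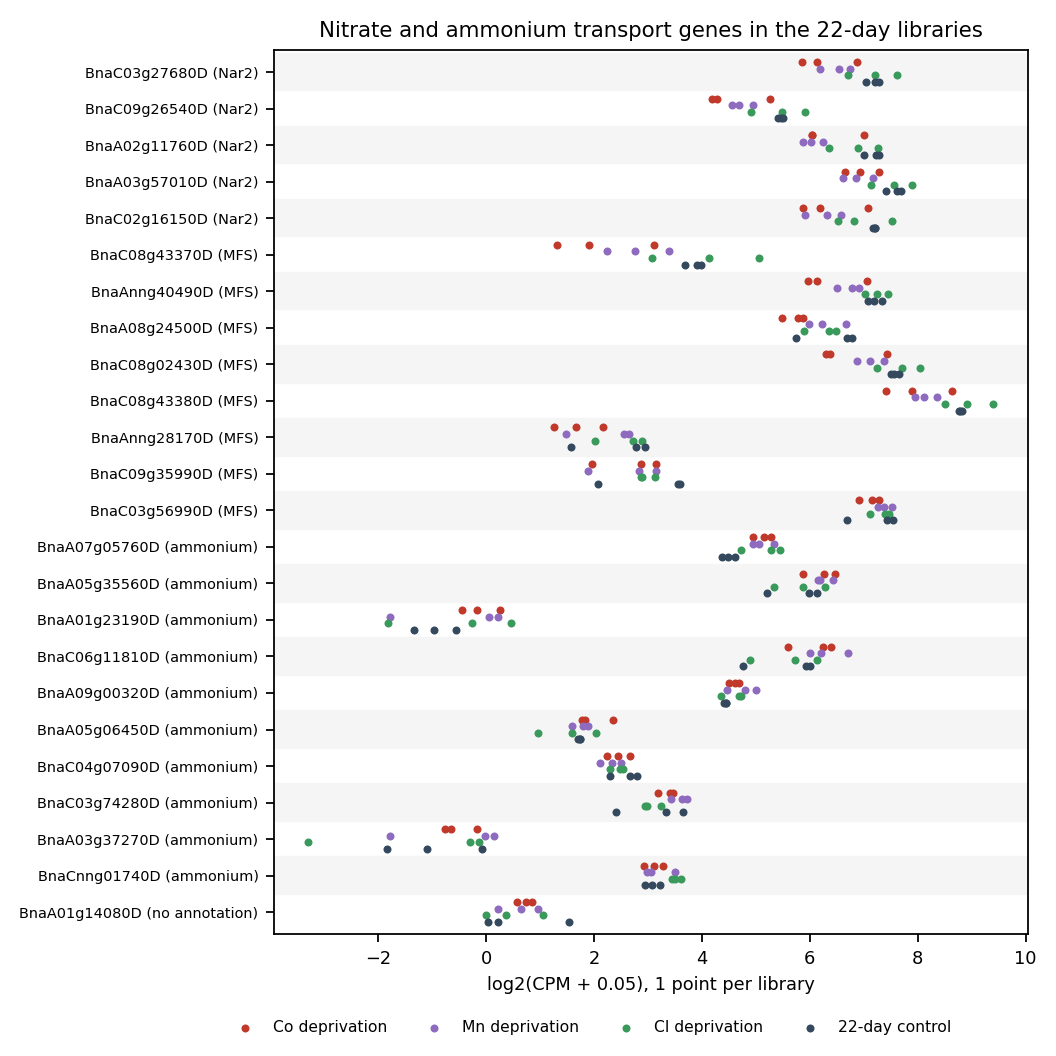
Levels of the 24 tested genes of the nitrogen group as log2(CPM + 0.05), with 1 point per library of Co, Mn and Cl deprivation and control, in the order Nar2, major facilitator superfamily, ammonium transporters and 1 gene with no annotation. In the 5 Nar2 genes the Co-deprived points lie below the control points and among the Mn-deprived ones, and in 9 of the 10 ammonium transporters the log2 fold change is positive.

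Sulphate transporters (SULTR family) bring sulphate into root cells and between tissues. Of 33 tested in the sulphur group, 6 were higher and 3 lower at the nominal threshold, 27.3% against 10.6% of all genes, and 2 and 2 with controls 1 and 2 treated as 1 sample. Without single libraries the higher genes numbered 1 (without control 3) to 5 and the lower ones 1 (without Co library 1, Co library 2 or control 3) to 5 (without Co library 3). BnaC03g37650D had 8.27, 5.88 and 7.74 CPM in Co-deprived roots and 3.89, 3.50 and 2.39 CPM in controls (log2 fold change 1.16, 95% interval 0.24 to 2.08). BnaA07g33860D, named SULTR1.2, the type for uptake at the root surface in Arabidopsis, had 66.4, 42.6 and 51.2 CPM in Co-deprived roots and 30.9, 28.1 and 34.7 CPM in controls (0.77). BnaA02g10510D, a SULTR1.1 gene, had 17.6, 6.47 and 5.63 CPM in Co-deprived roots and 5.42, 4.89 and 3.77 CPM in controls (1.07). Library 1 carried most of the difference in the last gene. Against the same controls, 8 genes of the group were higher and 2 lower in Mn deprivation (30.3%, against 11.9% of all genes). In Cl deprivation 0 were higher and 2 lower (6.06%, against 4.21% of all genes).

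Of the study's list of 60 sulphur-pathway genes, 58 were tested, 4 were higher and 3 lower at the nominal threshold (12.1%, against 10.6% of all genes), and none was called by edgeR's quasi-likelihood test (0 of 58). With controls 1 and 2 treated as 1 sample, 2 were higher and 3 lower, and without single libraries 1 (without Co library 1 or control 2) to 5 were higher and 3 to 6 (without Co library 3) lower. PAPS reductase acts in the reduction of activated sulphate. All 7 of its listed genes had a positive log2 fold change (median 0.44), with BnaA03g45080D at 194, 142 and 102 CPM in Co-deprived roots and 66.0, 65.1 and 70.7 CPM in controls (1.12, 95% interval 0.39 to 1.85). All 7 were positive against the same controls in Mn deprivation (median 0.34) and in Cl deprivation (median 0.26) as well. APS kinase makes PAPS, and 2 of its 11 listed genes were lower at the nominal threshold (18.2%). Of all genes, 10.6% differed in either direction and 5.23% were lower. BnaC01g00790D had 1.21, 1.34 and 1.18 CPM in Co-deprived roots and 3.54, 3.84 and 5.62 CPM in controls (-1.80), and BnaA01g34620D had a log2 fold change of -0.99.

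Glutathione S-transferases join glutathione to reactive and foreign compounds. All 12 tested genes, those of the same list and not the whole family, had a negative log2 fold change in Co-deprived against control roots (median -0.60). At the nominal threshold 1 of them differed (8.33%, against 10.6% of all genes). That gene, BnaA09g14510D, had 3.50, 4.96 and 5.39 CPM in Co-deprived roots and 7.92, 7.34 and 6.16 CPM in controls (-0.63). In Mn deprivation against the same controls 11 of the 12 were negative (median -0.44), and 0 of the 12 differed between Co- and Mn-deprived roots at the nominal threshold. Against Cl-deprived roots, 9 of the 12 were lower in Co-deprived roots at the nominal threshold (75.0%, median -0.97). Of all 54251 genes in that contrast, 15.9% differed in either direction and 4654 were lower. BnaA07g09120D had 43.4, 44.9 and 27.6 CPM in Co-deprived, 27.3, 154 and 182 CPM in Cl-deprived and 92.9, 91.7 and 65.6 CPM in control roots. Cl-deprived library 1, which lay on the side of the Co-deprived libraries in the principal component analysis, was close to the lowest of them here.

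Of 20 phosphate transport genes tested, 3 were lower and 1 higher at the nominal threshold (20.0%, against 10.6% of all genes), and 16 had a negative log2 fold change (median -0.47). Treating controls 1 and 2 as 1 sample left 2 lower and 0 higher, and without single libraries 1 (without control 1) to 4 were lower. Against Cl-deprived roots, 5 were lower and 2 higher at the nominal threshold (35.0%, against 15.9% of all genes in that contrast). There 10 were negative and 10 positive (median 0.01). BnaC03g18410D, a phosphate permease, had 8.67, 7.82 and 1.81 CPM in Co-deprived roots and 38.4, 35.9 and 12.3 CPM in controls (log2 fold change -2.26, 95% interval -4.09 to -0.44). Its levels varied widely within every group, with 4.42 to 18.6 CPM in Mn-deprived and 3.61 to 55.1 CPM in Cl-deprived roots. BnaC08g48150D, of the major facilitator superfamily, had 23.2, 21.4 and 32.0 CPM in Co-deprived roots and 43.5, 42.8 and 34.5 CPM in controls (-0.65).

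Calcium transport had 50 tested genes, 5 lower and 0 higher at the nominal threshold, 10.0% against 10.6% of all genes in both directions together. Of all genes, 5.23% were lower and 5.33% higher. Co-deprived libraries lay below all controls in 14 of the 50 (against 10.5% of all genes) and above them in 2 (against 11.7%). The log2 fold change was negative in 33 genes and positive in 17 (median -0.18). Treating controls 1 and 2 as 1 sample left 4 lower, and without single libraries 3 (without Co library 2) to 9 (without control 3). BnaA04g21850D, a calcium/proton exchanger of the CAX type that loads calcium into the vacuole, had 10.0, 11.3 and 16.2 CPM in Co-deprived roots and 27.6, 26.6 and 19.4 CPM in controls (log2 fold change -0.97, 95% interval -1.43 to -0.50). No gene annotated as a calcium-transporting P-type ATPase was among the 5. The other 4 were annotated as P-type ATPases of the proton-transporting subfamily, which the list files under calcium, among them BnaAnng10910D with 6.25, 2.19 and 1.96 CPM in Co-deprived roots and 10.9, 10.3 and 6.46 CPM in controls (-1.41). Mn-deprived levels of BnaA04g21850D were 10.8, 8.93 and 13 CPM, within or below the Co-deprived range.

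Potassium transport had 4 genes higher and 5 lower of 32 at the nominal threshold (28.1%, against 10.6% of all genes), and 4 and 1 with controls 1 and 2 treated as 1 sample. Without single libraries 2 (without control 3) to 4 were higher and 1 (without control 1) to 5 lower. BnaC02g19780D had 11.1, 16.5 and 16.7 CPM in Co-deprived roots and 9.45, 8.46 and 8.93 CPM in controls (log2 fold change 0.72, 95% interval 0.32 to 1.12). BnaC06g15440D had 430, 562 and 604 CPM in Co-deprived roots and 899, 885 and 691 CPM in controls (-0.63). Both are annotated as K+ transporters, so members with the same annotation lay on opposite sides.

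Among the remaining groups, the cation transporter BnaA02g22130D of the sodium symport group had 18.5, 11.6 and 15.1 CPM in Co-deprived roots and 71.0, 63.8 and 36.3 CPM in controls (log2 fold change -1.92, 95% interval -2.82 to -1.02). Mn-deprived roots had 2.53, 8.64 and 12.8 CPM and Cl-deprived roots 29.3, 36.5 and 35.6 CPM. It was the 1 ion-transport gene called by both the likelihood ratio test and DESeq2. BnaA02g11800D, a chloride channel of the ClC type, had 25.8, 21.3 and 29.2 CPM in Co-deprived roots and 46.8, 44.3 and 35.5 CPM in controls (-0.73). The magnesium transporter BnaA10g20650D of the NIPA type had 23.5, 24.5 and 17.5 CPM in Co-deprived roots and 16.0, 14.6 and 10.9 CPM in controls (0.65). Of the 17 genes of the CorA type in the Mg/Zn group, 1 was lower (BnaA10g13720D, -0.41) and 1 higher (BnaCnng00560D, 0.29). This share of 11.8% is near the 10.6% of all genes.

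In the copper group 2 were higher, the ATPases given above, and 1 was lower, the Ctr copper transporter BnaC01g24930D with 6, 0 and 3 counts in Co-deprived libraries and 12, 14 and 2 in controls. The fluoride group had 2 tested genes, BnaC04g02030D lower (log2 fold change -1.83) and BnaC04g47810D higher (1.05), both with overlapping libraries. The iron, sodium, boron and single-gene Zn groups had no gene at the nominal threshold.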

How the data were processed

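Stranded polyA libraries were sequenced in pairs, and the authors trimmed the reads, aligned them with STAR to the Genoscope annotation V5 and deposited raw counts, whole numbers of read pairs on each gene, with no normalization. Pairs mapping to several places are not in these counts. The reverse-strand column was used (the opposite strand held 0.55% to 0.78% of gene counts), and the 4 lines of each file that name no gene were left out. Of 101040 genes, 54251 passed filterByExpr in the 12 libraries of the harvest. They were tested with edgeR 4.0.16 (R 4.3.3; TMM, glmQLFit with its current, not legacy, setting, glmQLFTest, Benjamini-Hochberg adjustment, threshold 0.05). The study used the likelihood ratio test, an alternative here. The detectable size is the standard error times the quantile for the p required. For genes with few counts it can exceed the change at which the quasi-likelihood test calls a gene. CPM use TMM; principal components use log2 CPM with a prior count of 2. The floor is 3 counts per library and covers counting error only. The 95% intervals of log2 fold change include the spread between libraries in the fit. Figures used matplotlib 3.10.9.

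Genes named were the 12 of smallest p in each direction, the gene of smallest p in each ion group if at an unadjusted p of at most 0.05, the nickel/cobalt transporter and the ferroportins. Other genes were chosen after their values were seen. The comparison, its lists and tests were chosen with earlier results of these data known.

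Replicate numbers come from the labels. Deviations from the group means correlated between same-numbered Co and control libraries (r = 0.281, 0.142 and 0.463). Controls 1 and 2 gave nearly the same values with Co library 1 (0.281 and 0.291) and with Co library 2 (0.139 and 0.142). The correlations therefore cannot show that libraries 1 or libraries 2 form pairs. A replicate block by number was fitted as an alternative only. Gene names came from the study's lists. A RefSeq gene table of another assembly gave no names, so no coordinates or sequences are given. Alternatives were DESeq2 1.42.0, other normalizations, filters, thresholds and sets of libraries, each Co-deprived or control library left out, and summed controls. No Mn- or Cl-deprived library was left out singly.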

Additional observations from a re-analysis of the deposited data

How the results depend on the processing

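Counts of calls (adjusted p of at most 0.05) moved with the test and the libraries. For Co against control, 3 with all controls, they were 0 at an adjusted p of 0.01, 0 with the legacy quasi-likelihood fit, 0 with the CPM filter, 0 with all 33 libraries, 77 (likelihood ratio test), 52 (DESeq2), 67 (only the 2 groups compared) and 0 to 1 when single libraries were left out. Directional counts were 39 higher and 38 lower (likelihood ratio test), 26 and 26 (DESeq2) and 13 and 54 (2 groups). With the replicate block (same numbers treated as pairs), 1 gene was called, 1 higher and 0 lower, with 38 for Co against Cl and 2 for Mn against control. In that fit 7100 genes, 78 of the ion list, had an unadjusted p of at most 0.05. The ion list had 4 calls (likelihood ratio test) and 1 (DESeq2), and the metal families 1 (likelihood ratio test).

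For Co against Cl (6 calls), the counts were 3 at an adjusted p of 0.01, 795 (likelihood ratio test), 2 (legacy), 3 (upper quartile), 2 (CPM filter), 374 (33 libraries), 0 (2 groups), 852 (DESeq2) and 1 to 22 without single libraries. For Co against Mn (0) they were 11 (likelihood ratio test), 3 (no filter), 1 (33 libraries) and 7 (DESeq2). Cl against control (0) gave 33, 6 (33 libraries) and 34 (DESeq2), and Mn against control (0) gave 182, 1 (no filter), 10 (33 libraries), 1 (2 groups), 182 (DESeq2) and 0 to 1 without single libraries. The single libraries left out were always Co-deprived or control ones, never Mn- or Cl-deprived ones.

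Summing controls 1 and 2, chosen after seeing the data, gave 0 calls for Co against control and 3 for Co against Cl; with the likelihood ratio test 21, 532 (Co against Cl), 9 (Co against Mn), 10 (Cl) and 37 (Mn), with DESeq2 14, 506, 7, 8 and 34, and with only the 2 groups 0 and 0. The detectable log2 fold change for 1 gene alone, 2.26, became 2.11 (CPM filter), 1.66 (33 libraries), 2.87 (2 groups), 2.76 (summed controls) and 2.60 to 2.80 without single libraries.

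Genes at an unadjusted p of at most 0.05 numbered 3645 to 6409 when single libraries were left out. Over 44 named genes and 905 pairs of gene and setting, 5 pairs reversed sign, all when single libraries were left out: BnaC04g06820D (-0.38 to 0.42), BnaC03g01300D (-0.0079 to 0.12) and BnaAnng11650D (-0.017 to 0.13). The causes were not tested. The near-identical controls 1 and 2, 3 libraries per group and low counts limit these results.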

Other observations

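Over 4 fits (quasi-likelihood, likelihood ratio, DESeq2 and the 6 libraries alone), 137 genes were called by at least 1, of which 44 had a positive and 93 a negative log2 fold change in Co-deprived against control roots. Of these, 10 were called by at least 3 fits and 3 by all 4. The study's lists gave a name to 11 of them. BnaA03g44400D, a peptidase of the M20 type, was higher in Co-deprived roots (log2 fold change 1.01) and called by the likelihood ratio test and DESeq2. BnaC09g48670D, a leucine-rich repeat protein (-1.62), and BnaA09g45270D, a glutamine amidotransferase of the C26 peptidase family (-2.05), were lower and called by the likelihood ratio test alone. BnaC09g04640D, with a C2 calcium-dependent membrane-targeting domain (-1.04), was lower and called by the fit of the 6 libraries alone. Of the 278 tested ion-transport genes, 4 were among the 137, against 54251 genes tested in all. They were BnaA02g22130D, BnaA03g50000D, BnaA04g21850D and BnaA06g14970D, all 4 lower in Co-deprived roots, as were 93 of the 137. The likelihood ratio test and DESeq2 called BnaA02g22130D. The others were called by the likelihood ratio test alone, which called 0.142% of all genes.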
